A study of Sus scrofa with 60 samples.

Results

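The genes described here encode liver enzymes of sulfation and other phase II conjugation, in 60 RNA sequencing libraries of pig liver. The rule took the rows of the count table whose gene name was SULT2A1, SULT1A1, SULT1B1, SULT1E1, UGT1A6, UGT2B31, GSTA2, GSTA4 or GSTP1. Rows of 5 of the 9 names were found, SULT2A1, SULT1E1, UGT1A6, UGT2B31 and GSTA4, among 30335 rows with a gene name. No row carried the other 4 names. Rows whose description places them beside those names are given with the enzyme families further on.

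The pigs were preterm newborns of a Landrace/Hampshire mix, of both sexes, with surgery on day 1 of life and 14 days on the assigned diet. Bile duct ligation (BDL), in which the cystic and common bile ducts were tied, is a surgical model of obstructive cholestasis. Sham pigs had the incision and handling of the liver only. The diets were enteral formula (ENT), total parenteral nutrition with a soy lipid emulsion (SLE, Intralipid) and total parenteral nutrition with a multicomponent lipid emulsion (MLE, SMOFlipid). All pigs, the ENT pigs included, received parenteral nutrition on the first day, and ENT pigs were moved to full enteral feeding over the first week. By diet, 12 sham and 10 ligated libraries were from ENT, 10 sham and 11 ligated from SLE, and 9 sham and 8 ligated from MLE. The labels give 59 pig identifiers, since 2 SLE-sham libraries share one. Each library is counted as a pig below, also 2 nearly alike ENT libraries that may come from 1 pig.

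Phase II enzymes attach a water-soluble group to hormones, bile acids and foreign compounds, so that the products can leave in bile or urine. Sulfotransferases (SULT) move a sulfonate group from the donor PAPS, UDP-glucuronosyltransferases (UGT) move glucuronic acid from UDP-glucuronic acid, and glutathione S-transferases (GST) couple reactive compounds to glutathione. SULT2A1 is the liver enzyme that sulfates bile acids and the adrenal steroid DHEA, and is known for its place in the handling of bile acids in cholestasis.

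Libraries held 14469788 to 21374161 counts on named genes, with a median of 17254606. Levels are given in CPM, the counts of a gene per 1000000 counts of the TMM-scaled library. Fold changes and adjusted p-values are from edgeR's quasi-likelihood test on all 60 libraries, with Benjamini-Hochberg adjustment over 16210 tested genes. A gene was called when its adjusted p was below 0.05 and its fold change above 2. The adjusted p alone decided for the 3 tests of whether the surgery effect differed between diets. ALB, the hepatocyte product albumin, had medians of 31340 to 70740 CPM in the 6 groups. An ENT-sham library (replicate 2) and an ENT-BDL library (replicate 1) were nearly alike, with a chi-square per degree of freedom of 1.90 between their counts against 15.5 for the next closest of 1770 pairs. ENT-sham replicate 2 held 225.8 CPM of the BDL-responsive gene MMP7, against a group median of 4.09. Both libraries kept their labels in the main fit. Whether they come from 1 pig, and which of the 2 labels then applies, is not known. The 7 pairwise comparisons with ENT pigs were therefore also fitted without both libraries. This was done for the 5 genes and for the other enzymes, supply genes, transporters, regulators and cell markers that follow. MMP7 in MLE-BDL against ENT-sham went from a log2 fold change of 1.02 to 3.27 in that fit. Of 1351 changes of 193 genes so recomputed, 174 were called both ways, 2 calls were lost and 30 were gained, and those that touch a result are given beside it. The 2 lost calls lay at the 2-fold limit. They were LOC100515394 in SLE-BDL against ENT-sham (-1.02, then -0.99) and INMT in SLE-BDL against ENT-BDL (-1.02, then -1.0). SLE-sham replicates 9 and 10 carried the same pig identifier, yet their counts differed (chi-square per degree of freedom of 32.7), and both were kept, so that SLE-sham may hold 9 pigs. With either left out 0 calls of the 5 genes changed, and SULT2A1 in SLE-sham against ENT-sham was -1.63 or -1.81.

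All 5 genes were well above the limit of detection, with at least 248 counts in every library. UGT2B31 ranked 383rd, UGT1A6 414th, SULT2A1 427th, GSTA4 788th and SULT1E1 820th of all named genes by mean CPM per kilobase. On that length-scaled level the means over all pigs were 139 CPM per kilobase for UGT2B31, 124 for UGT1A6, 121 for SULT2A1, 65.3 for GSTA4 and 62.7 for SULT1E1. The 3 genes at the top of this order thus lay close together and the other two at a lower level.

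SULT2A1 lies at chr6:53525496-53536723 on the minus strand of Sscrofa11.1, and its 1013 annotated bases overlap no other gene. Its levels were highest in the enterally fed pigs, and no change with ligation passed the test there. ENT-sham pigs ranged from 141.8 to 318.6 CPM with a median of 209.8 CPM. ENT-BDL pigs ranged from 140.1 to 359.3 CPM with a median of 191 CPM. The 2 ranges overlapped nearly in full. The log2 fold change of ENT-BDL against ENT-sham was -0.02 ± 0.31 (SE), with a 95% interval from -0.63 to 0.59 and an adjusted p of 0.976. Of the 5 genes, 0 were called by edgeR or DESeq2 in this comparison, against 3.39% of all genes tested in edgeR, and 1 had an unadjusted p under 0.05, as did 30% of all genes.

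SULT2A1 was lower on either lipid emulsion in sham pigs. SLE-sham pigs ranged from 16.6 to 170.4 CPM with a median of 53.1 CPM. MLE-sham pigs ranged from 21.5 to 116 CPM with a median of 78.6 CPM. Every one of the 9 MLE-sham pigs, and 9 of the 10 SLE-sham pigs, lay below the lowest ENT-sham pig. The log2 fold change against ENT-sham was -1.66 ± 0.33 for SLE-sham (3.17-fold lower, adjusted p = 7.55e-05) and -1.63 ± 0.34 for MLE-sham (3.10-fold lower, adjusted p = 0.000258). SULT2A1 was the 1 gene of the 5 called in each of these, where 5.24% and 3.71% of all genes were called. No difference between the emulsions passed in sham pigs, where MLE-sham against SLE-sham gave a log2 fold change of 0.03 ± 0.34, a 95% interval from -0.63 to 0.69 and an adjusted p of 0.991. There 0 of the 5 genes were called by edgeR or DESeq2, against 0.463% of all genes, and 0 had an unadjusted p under 0.05, as 11.3% of all genes did. Without the matching ENT libraries the changes against ENT-sham were -1.71 for SLE-sham and -1.68 for MLE-sham. Over all the alternative settings the MLE-sham change ran from -1.77 to -1.35, with adjusted p up to 0.0176 (edgeR or DESeq2). Only 2 of the numbers in the pig identifiers held both MLE-sham and ENT-sham pigs. The differences in mean log2 CPM there were -2.01 and -0.59.

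**Figure D1:**
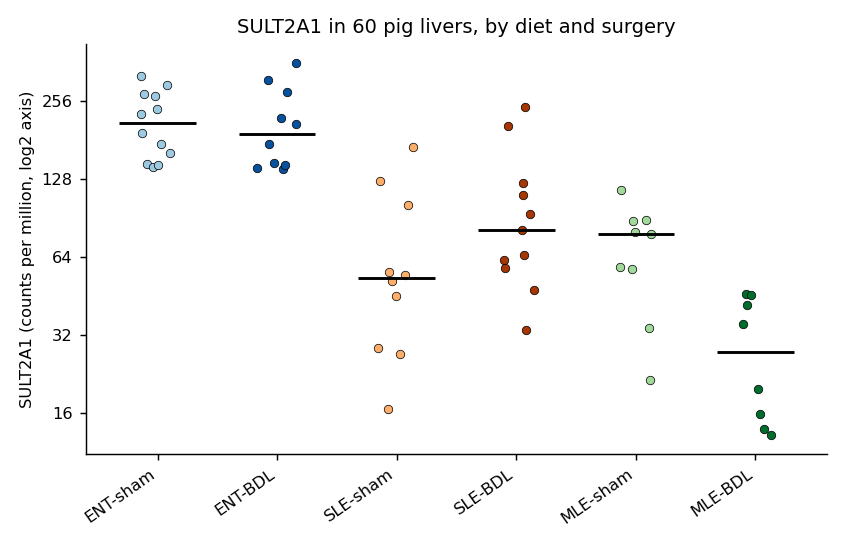
SULT2A1 CPM (log2 axis) in each of 60 pigs, 1 point a pig, by diet and surgery, with the group median as a bar. The 8 MLE-BDL pigs, at 13.1 to 46.0 CPM, lie below all 22 enterally fed pigs.

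Among ligated pigs the order of SULT2A1 was ENT-BDL, then SLE-BDL, then MLE-BDL. SLE-BDL pigs ranged from 33.5 to 242.1 CPM with a median of 81.0 CPM. MLE-BDL pigs ranged from 13.1 to 46.0 CPM with a median of 27.5 CPM, and none reached the lowest ENT-BDL pig. Thus 9 of the 11 SLE-BDL pigs and 8 of the 8 MLE-BDL pigs lay below all ENT-BDL pigs. The log2 fold change of MLE-BDL against ENT-BDL was -2.87 ± 0.38 (7.32-fold lower, adjusted p = 1.86e-07), -2.92 without the matching libraries and -2.55 with the identifier number of the pigs as a block (adjusted p = 3.65e-05). SLE-BDL against ENT-BDL gave -1.05 ± 0.32 (2.08-fold lower, adjusted p = 0.0147), which lies at the edge of the 2-fold limit. This second call was lost, on the fold and not on the adjusted p (0.0264 to 0.0334), without ENT-BDL replicate 4 (-0.95), SLE-BDL replicate 6 (-0.96), SLE-BDL replicate 2 (-0.98), ENT-BDL replicate 5 (-0.98) or SLE-BDL replicate 8 (-1.0). It was lost in the same way with the replicate number as a block (-0.97, adjusted p = 0.045). Called genes were 1 of 5 for SLE-BDL against ENT-BDL and 2 of 5 for MLE-BDL against ENT-BDL, where 3.13% and 3.18% of all genes were called.

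SULT2A1 was also lower in MLE-BDL than in SLE-BDL pigs, by a log2 fold change of -1.82 ± 0.36 (3.52-fold, adjusted p = 0.00544). Of all genes, 0.37% were called between the 2 emulsions after ligation, and SULT2A1 was the 1 called gene of the 5. Of the 8 MLE-BDL pigs, 4 lay below the lowest SLE-BDL pig, and 10 of the 11 SLE-BDL pigs lay above the highest MLE-BDL pig. MLE pigs carried only the 4 highest of the 8 numbers in the pig identifiers, and what these numbers stand for was not stated. With the identifier number as a block the log2 fold change was -1.38 with an adjusted p of 0.209. Fitted on these 2 groups alone it was -1.83 with an adjusted p of 0.0775. In the 2 identifier numbers that held both groups the differences in mean log2 CPM were -1.96 and -1.28. The first rests on 2 MLE-BDL pigs and 1 SLE-BDL pig, the second on 1 MLE-BDL pig and 2 SLE-BDL pigs.

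Ligation lowered SULT2A1 in the MLE pigs. MLE-BDL against MLE-sham gave a log2 fold change of -1.26 ± 0.37 (2.39-fold lower, adjusted p = 0.0136), and 7 of the 9 MLE-sham pigs lay above every MLE-BDL pig. The difference was negative in all 4 identifier numbers that held both groups, from -1.69 to -0.38 in mean log2 CPM. SLE-BDL against SLE-sham gave 0.59 ± 0.32, with a 95% interval from -0.04 to 1.22 and an adjusted p of 0.331, which did not pass. In these comparisons 1 of 5 and 0 of 5 genes were called by edgeR and by DESeq2, against 3.78% and 1.49% of all genes in edgeR, and 0 of 5 had an unadjusted p under 0.05 on SLE, as 18.3% of all genes did.

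Whether the response to ligation differed between diets was tested directly. For SULT2A1 the MLE effect minus the SLE effect was -1.85 ± 0.49 on the log2 scale with an adjusted p of 0.0804, short of the threshold. It passed with DESeq2 (-1.86, adjusted p = 0.0297), and in edgeR without SLE-sham replicate 3 (-2.11, 0.0225), SLE-BDL replicate 6 (-1.95, 0.0353) or MLE-sham replicate 6 (-1.98, 0.0417). The MLE effect minus the ENT effect was -1.24 ± 0.48 (adjusted p = 0.401) and the SLE effect minus the ENT effect was 0.61 ± 0.45 (adjusted p = 0.577). None of the 5 genes passed in any of the 3 tests, a count of 0, where 0.265% (MLE against SLE), 0.0617% (MLE against ENT) and 2.33% (SLE against ENT) of all genes did. At an unadjusted p under 0.05 the counts were 2 of 5, 3 of 5 and 3 of 5, where 9.76%, 9.04% and 14.8% of all genes passed, SULT2A1 (p = 0.000382 and 0.0123 in edgeR's test) among those of MLE against SLE and MLE against ENT.

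Against the enterally fed sham pigs, SULT2A1 was 2.11-fold lower in SLE-BDL pigs (log2 fold change -1.07 ± 0.31, adjusted p = 0.00478) and 7.42-fold lower in MLE-BDL pigs (-2.89 ± 0.38, adjusted p = 1.86e-08). It was the 1 called gene of 5 in each, where 7.35% and 8.64% of all genes were called. The SLE-BDL value fell just under 2-fold without SLE-BDL replicate 2 (-1.0) or SLE-BDL replicate 6 (-0.98). These comparisons and the preceding ones share control pigs and are not independent of each other.

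SULT1E1, the estrogen sulfotransferase, lies at chr8:66811536-66838181 on the minus strand and overlaps no other gene. It was lowest in MLE-BDL pigs, which ranged from 52.0 to 118 CPM with a median of 86.9 CPM. ENT-BDL pigs ranged from 112 to 259.5 CPM with a median of 165 CPM, and ENT-sham pigs from 111 to 200.3 CPM with a median of 145 CPM. In SLE-sham and SLE-BDL pigs the medians were 142 and 145 CPM, within ranges of 78.8 to 194 and 66.2 to 216 CPM. MLE-sham pigs had a median of 122.8 CPM and a range of 44.9 to 169 CPM. Thus 7 of the 8 MLE-BDL pigs lay below all ENT-BDL pigs, while the sham groups overlapped. MLE-sham against ENT-sham gave -0.35 (adjusted p = 0.2), and -0.66 (adjusted p = 0.019) with the identifier number as a block. MLE-BDL against ENT-BDL gave a log2 fold change of -1.03 ± 0.21 (2.04-fold lower, adjusted p = 0.000253). That call was lost on the fold alone without MLE-BDL replicate 6 (-0.95), MLE-BDL replicate 1 (-0.96), ENT-BDL replicate 4 (-0.96) or ENT-BDL replicate 10 (-0.98). The same held with the replicate number as a block (-0.96). Against ENT-sham and SLE-BDL pigs the MLE-BDL values were -0.84 ± 0.20 (adjusted p = 0.000673) and -0.77 ± 0.20 (adjusted p = 0.0451), past the adjusted p but under 2-fold. With the identifier number as a block the change against ENT-sham was -1.1 (adjusted p = 8.2e-05) and was called. The difference from SLE-BDL pigs no longer passed the adjusted p without SLE-BDL replicate 4, 5, 7, 9 or 10 or MLE-BDL replicate 1, 3, 4, 5, 6 or 7 (up to 0.11), nor in 4 of the other settings (up to 0.138 on the compared groups only). The change with ligation on MLE, -0.50 ± 0.21, had an adjusted p of 0.103.

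UGT1A6 conjugates small planar phenols. Its row covers 80337 bases at chr15:133968693-134049029 on the plus strand, with 5 RefSeq transcripts, and overlaps 3 other annotated genes, so that the count may hold reads of other first exons of the UGT1A locus or of those genes. ENT-sham pigs ranged from 357 to 843 CPM with a median of 777 CPM, and ENT-BDL pigs from 285 to 673 CPM with a median of 603 CPM. The ENT-sham minimum belonged to replicate 2, and 10 of the 12 ENT-sham pigs lay above the highest ENT-BDL pig. The log2 fold change was -0.46 ± 0.14 (adjusted p = 0.0179), and -0.48 (adjusted p = 0.00709) without the matching libraries, less than 2-fold in both. On the emulsions the medians lay between 696 CPM in MLE-BDL pigs and 837 CPM in MLE-sham pigs. SLE-BDL pigs, at 356 to 1070 CPM with a median of 773 CPM, were above ENT-BDL pigs by 0.45 ± 0.14 (adjusted p = 0.0197), and MLE-BDL against ENT-BDL gave 0.41 ± 0.16 (adjusted p = 0.0574). The SLE-BDL difference had an adjusted p of 0.108 on the compared groups only and 0.0515 without SLE-BDL replicate 8. With the identifier number as a block the differences were 0.33, which still passed, and 0.13 (adjusted p = 0.644), and with the replicate number as a block MLE-BDL against ENT-BDL gave 0.51 (adjusted p = 0.0161). Ligation gave -0.03 ± 0.14 on SLE and -0.20 ± 0.16 on MLE, and neither passed. The lowest of the 6 group medians of UGT1A6 was that of ENT-BDL pigs.

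UGT2B31 belongs to a UGT subfamily that glucuronidates steroids and other lipophilic compounds. It lies at chr8:66310697-66323755 on the minus strand, overlaps 1 annotated gene on the other strand, and 2 other rows on the same chromosome carry the same description, so that the split of reads between them is uncertain. Levels were highest in ENT-sham pigs, which ranged from 241 to 571 CPM with a median of 504.0 CPM. ENT-BDL pigs ranged from 189.5 to 621 CPM with a median of 389 CPM. The 4 emulsion groups had medians of 347 CPM in SLE-BDL, 294 CPM in SLE-sham, 283 CPM in MLE-sham and 251 CPM in MLE-BDL pigs. The highest MLE-BDL pig, at 321 CPM, lay below 11 of the 12 ENT-sham pigs. Against ENT-sham the log2 fold changes were -0.62 ± 0.15 for SLE-sham (adjusted p = 0.00143), -0.74 ± 0.16 for MLE-sham (adjusted p = 0.000409) and -0.80 ± 0.17 for MLE-BDL (adjusted p = 0.000107). MLE-BDL against ENT-BDL gave -0.57 ± 0.17 (adjusted p = 0.0141). All 4 passed the adjusted p and stayed under 2-fold. Ligation gave -0.23 ± 0.15, 0.26 ± 0.16 and -0.06 ± 0.17 on ENT, SLE and MLE, none of which passed.

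GSTA4 conjugates hydroxynonenal and other aldehydes formed by lipid peroxidation. It lies at chr7:46635903-46656491 on the minus strand, and a second row described as GST A4 is counted separately. Its group medians spanned a narrow range, from 68.1 CPM in ENT-sham to 94.2 CPM in MLE-sham pigs. MLE-sham pigs ranged from 73.6 to 125.0 CPM and ENT-sham pigs from 54.7 to 103 CPM, and 7 of the 12 ENT-sham pigs lay below every MLE-sham pig. MLE-sham against ENT-sham gave a log2 fold change of 0.43 ± 0.13 (adjusted p = 0.0155), under 2-fold. SLE-sham against ENT-sham gave 0.31 ± 0.13 (adjusted p = 0.0669). Among ligated pigs MLE-BDL against ENT-BDL gave 0.01 ± 0.14, with a 95% interval from -0.27 to 0.29. GSTA4 thus had its lowest median where that of UGT2B31 was highest.

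**Figure D2:**
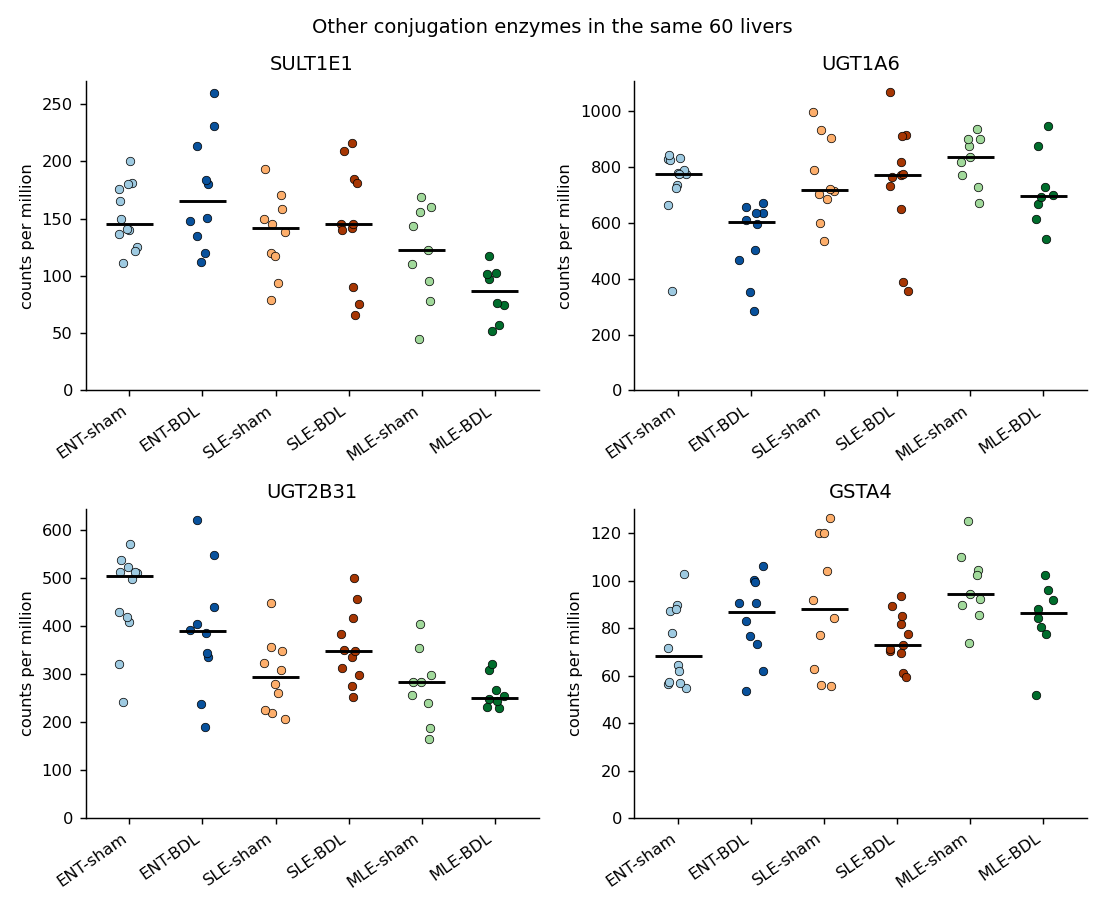
SULT1E1, UGT1A6, UGT2B31 and GSTA4 CPM (linear axes from 0), 1 point a pig, with group medians as bars. SULT1E1 is lowest in MLE-BDL pigs (median 86.9 CPM), UGT1A6 in ENT-BDL pigs (603 CPM), UGT2B31 in MLE-BDL pigs (251 CPM) and GSTA4 in ENT-sham pigs (68.1 CPM).

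**Figure D3:**
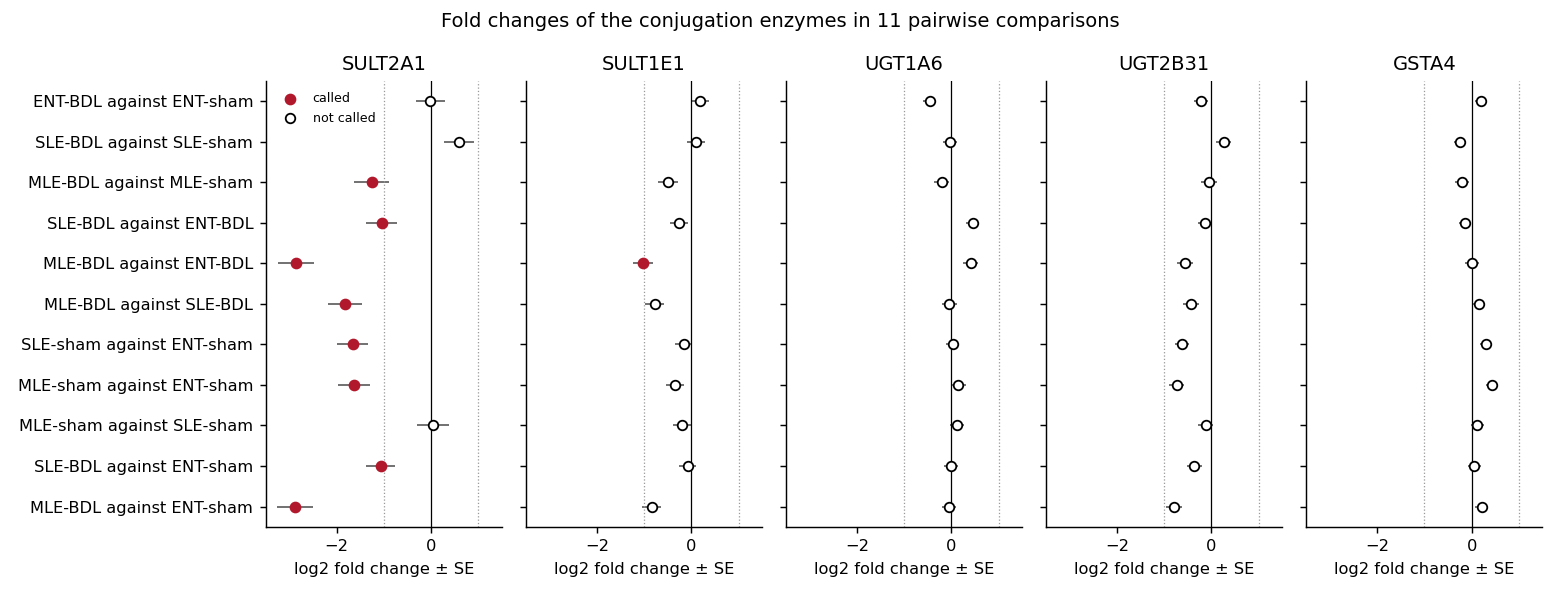
Log2 fold changes with their standard errors for the 5 genes in 11 pairwise comparisons, filled where adjusted p was below 0.05 and the change above 2-fold (dotted lines). SULT2A1 is filled in 8 comparisons and SULT1E1 in 1, and the changes of the other 3 genes lie between -0.80 and 0.45.

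By name or description the table held 50 rows of the 3 enzyme families, 13 sulfotransferases, 14 UGT and 23 GST, of which 7, 13 and 22 passed the filter on low counts. Rows near the 4 absent names are given by their identifiers. SULT1A3, for which RefSeq lists SULT1A1 as a synonym, encodes a phenol sulfotransferase at chr3:18351205-18354653. It was higher after ligation on ENT (median 58.1 against 24.7 CPM, log2 fold change 1.41 ± 0.23, adjusted p = 1.49e-05) and on MLE (77.3 against 31.7 CPM, 1.00 ± 0.26, adjusted p = 0.00556), and in SLE-sham against ENT-sham pigs (1.44 ± 0.23, adjusted p = 2.61e-06). Its direction was thus the opposite of that of SULT2A1 in MLE-BDL against MLE-sham and in SLE-sham against ENT-sham pigs. LOC100624541, described as SULT1B1, was at medians of 0.421 to 4.13 CPM. It was lower in ENT-BDL than in ENT-sham pigs (-1.64 ± 0.43, adjusted p = 0.00444) and higher in SLE-BDL and MLE-BDL than in ENT-BDL pigs (2.04 ± 0.43 and 1.64 ± 0.46).

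Among the GST rows, GSTA1, an alpha class enzyme abundant in hepatocytes, was lower on SLE than on ENT in sham pigs (median 160.0 against 333 CPM, log2 fold change -1.02 ± 0.33, adjusted p = 0.0159). It was also lower in ligated SLE and MLE pigs than in ENT-BDL pigs, by -1.12 ± 0.33 and -1.48 ± 0.37. LOC100526118, described as GST A1-like, and LOC106504562, which has an alpha class description but is annotated as a long non-coding RNA, were called lower in those 3 comparisons too. Of the 2 rows described as GST P-like, a class that bile duct cells express, LOC100739508 was higher after ligation on ENT (1.62 ± 0.31, adjusted p = 9.56e-05) and MLE (1.57 ± 0.34, adjusted p = 0.000799). LOC100739163 was more abundant, at medians of 25.7 CPM in ENT-sham and 52.1 CPM in ENT-BDL pigs, and gave 0.88 ± 0.18 (adjusted p = 0.000321), under 2-fold. LOC100510917, the other row described as GST A4, was called higher after ligation on ENT (2.25 ± 0.61, adjusted p = 0.00607), at medians of 0.521 and 1.12 CPM and with a highest ENT-BDL pig at 32.9 CPM. Over the 22 tested GST rows, 2 were higher and 1 lower in ENT-BDL against ENT-sham, and 0 were higher and 3 lower in MLE-BDL against ENT-BDL, with medians of -0.15 and -0.45. In either direction 3.39% and 3.18% of all genes were called in these comparisons. Without the matching libraries LOC100510917 (-1.95, adjusted p = 0.0452) was also called lower in MLE-BDL against ENT-BDL.

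Among the UGT rows, LOC100515394, described as UGT2C1, was higher in ENT-BDL than in ENT-sham pigs at less than 2-fold (0.92 ± 0.27, adjusted p = 0.0142), and called there at 1.0 without the matching libraries. On the emulsions it was much lower, with medians of 133 CPM in ENT-sham, 59.4 CPM in SLE-sham and 21.97 CPM in MLE-sham pigs. Log2 fold changes against ENT-sham were -1.37 ± 0.29 and -2.22 ± 0.31, and MLE-BDL against ENT-BDL gave -2.60 ± 0.33 (adjusted p = 5.85e-08). LOC100623255, one of the rows that share the UGT2B31 description, was lower after ligation on ENT (median 151 against 408 CPM, -1.29 ± 0.28, adjusted p = 0.000595) and on MLE (84.4 against 233 CPM, -1.21 ± 0.31, adjusted p = 0.00533), where UGT2B31 itself gave -0.23 and -0.06. LOC100515741, the other row of that description, had medians of 806 CPM in ENT-sham and 735 CPM in ENT-BDL pigs, and 423 and 411 CPM in MLE-sham and MLE-BDL pigs. Ligation gave -0.19 ± 0.23 and -0.15 ± 0.26 there (adjusted p = 0.634 and 0.76), and MLE-sham against ENT-sham gave -0.76 ± 0.24 (adjusted p = 0.016), under 2-fold. LOC100516628, described as UGT2B18-like, had the steepest changes against ENT (-4.61 ± 0.97 for MLE-sham against ENT-sham), but its ENT-sham median was 0.536 CPM and single ENT pigs reached 20.99 CPM, and it did not pass the filter on low counts without the matching libraries. LOC100623504, described as UGT2B31-like, was lower after ligation by -1.71 ± 0.48 on ENT and -2.01 ± 0.58 on MLE, from medians of 17.4 and 5.36 CPM. In SLE-sham against ENT-sham pigs 3 of 13 UGT rows were called lower and 0 higher, where 5.24% of all genes were called, with a median of -0.55 against -0.01 over all genes. Without the matching libraries 2 of 12 were called lower.

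**Figure D4:**
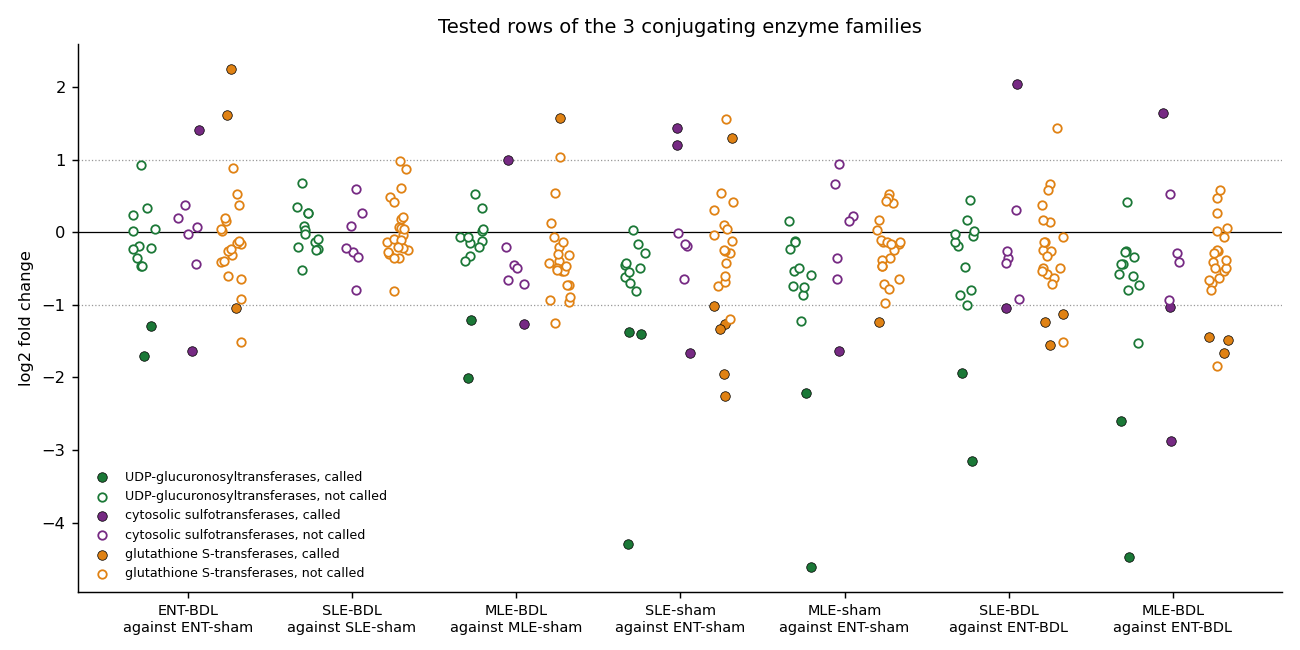
Log2 fold changes of the tested rows of the 3 enzyme families in 7 comparisons, 1 point a row, filled where called. In the 2 comparisons of ligated pigs on an emulsion with ENT-BDL the called UGT and GST rows are all lower, and the called sulfotransferase rows lie on both sides.

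Of 11 tested genes of sulfate supply (12 listed), 0 were called in MLE-BDL against ENT-BDL, where 3.18% of all genes were called, a background at which so short a list often has no call. Their median log2 fold change there was 0.02. CDO1, cysteine dioxygenase, which starts the route from cysteine to sulfate, was lower with ligation on ENT (median 57.7 against 114 CPM, -1.01 ± 0.31, adjusted p = 0.0178) and higher on SLE (132 against 74.4 CPM, 1.18 ± 0.32, adjusted p = 0.0206). STS, the steroid sulfatase that removes sulfate from steroids, was higher in MLE-BDL than in SLE-BDL pigs (median 9.33 against 2.11 CPM, 1.67 ± 0.37, adjusted p = 0.014). For glucuronate supply, UGP2, which makes UDP-glucose, was lower in each emulsion group than in the ENT group of the same surgery, with log2 fold changes from -1.58 ± 0.14 to -1.10 ± 0.16, and it was the 1 called of 4 genes, where 5.24% (SLE-sham), 3.71% (MLE-sham), 3.13% (SLE-BDL) and 3.18% (MLE-BDL) of all genes were called. For glutathione supply 1 of 6 genes was called after ligation on ENT, the cystine carrier SLC7A11 (1.15 ± 0.23, adjusted p = 0.000317), and 0 were called on SLE or MLE, where 3.39%, 1.49% and 3.78% of all genes were called on ENT, SLE and MLE.

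Of 17 tested genes of acetyl, methyl and amino acid conjugation (27 listed), 3 were called lower and 0 higher in MLE-BDL against ENT-BDL, with a median log2 fold change of -0.30, where 3.18% of all genes were called. SLC27A5, which activates bile acids for conjugation with glycine and taurine, had medians of 380 CPM (sham) and 243 CPM (BDL) on ENT, 98.4 and 89.9 CPM on SLE, and 114 and 64.9 CPM on MLE. It was thus lower on the emulsions, by -1.84 ± 0.27 for SLE-sham and -1.61 ± 0.28 for MLE-sham against ENT-sham, and by -1.3 ± 0.26 and -2.05 ± 0.30 for the ligated groups against ENT-BDL. METTL7B, a thiol methyltransferase, had medians of 130 CPM in ENT-BDL and 6.75 CPM in MLE-BDL pigs (-3.60 ± 0.63, adjusted p = 3.66e-05). INMT, an amine methyltransferase, was lower by -1.91 ± 0.21 in the same comparison.

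Of the 14 tested genes of conjugate export and uptake, 3 were called higher and 1 lower after ligation on ENT, where 3.39% of all genes were called. The basolateral bile acid and steroid exporter subunits SLC51A and SLC51B rose by 2.10 ± 0.57 and 1.57 ± 0.31 on ENT and by 2.33 ± 0.65 and 1.3 ± 0.36 on MLE. Both were also higher in SLE-sham than in ENT-sham pigs, by 2.53 ± 0.57 and 1.26 ± 0.31. Without the matching libraries SLC51A gave 2.92 after ligation on ENT and 3.37 in SLE-sham against ENT-sham pigs. The uptake carrier SLCO1A2 fell by 1.76 on the log2 scale after ligation on ENT (adjusted p = 2.05e-07), and was lower by -2.23 ± 0.24 and -1.79 ± 0.24 in SLE-sham and MLE-sham against ENT-sham pigs. On SLE ligation gave 1.07 ± 0.54 for SLC51A (medians of 6.89 CPM in sham and 5.59 CPM in ligated pigs, adjusted p = 0.284) and 0.34 ± 0.32 for SLC51B (29.6 and 33.7 CPM, adjusted p = 0.622), and neither passed. SULT2A1 gave -0.02 with ligation on ENT, 0.59 on SLE and -1.26 on MLE.

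The nuclear receptors PXR (NR1I2), CAR (NR1I3) and FXR (NR1H4) and the factor HNF4A are known to act on conjugation genes in liver. NR1I3 was the member of this group with the widest changes. Its medians were 28.1 CPM (sham) and 17.9 CPM (BDL) on ENT, 10.04 and 8.19 CPM on SLE, and 10.5 and 5.37 CPM on MLE. Log2 fold changes were -1.35 ± 0.24 for SLE-sham and -1.41 ± 0.25 for MLE-sham against ENT-sham, and -1.52 ± 0.27 for MLE-BDL against ENT-BDL, all called. NR1I2 gave -0.32 ± 0.10 in that last comparison (adjusted p = 0.0203), NR1H4 gave -0.12 ± 0.07 (adjusted p = 0.268) and HNF4A gave -0.04 ± 0.09 (adjusted p = 0.823). After ligation on ENT, 13 of the 24 regulators tested passed the adjusted p as lower, all under 2-fold, as did 8.53% of all genes at any fold. Of the 24, NR1I3 was the 1 called lower and 0 were called higher in each of the 4 comparisons of an emulsion group with the ENT group of the same surgery, a share near the 3.13% to 5.24% of all genes called there. Without the matching libraries VDR was called higher in SLE-sham pigs (1.93, adjusted p = 0.0053). VDR, the vitamin D receptor, was called higher after ligation on ENT and MLE (2.16 ± 0.51 and 3.50 ± 0.64), from medians of 0.115 and 0.134 CPM, and at 2.93 on ENT without the matching libraries. ESR1, an estrogen receptor, gave -0.88 ± 0.21 and -0.91 ± 0.24 in the same comparisons, under 2-fold. Whether the receptor levels bear on SULT2A1 was not tested.

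Markers of the cells that a liver sample holds moved in part with the groups. In bulk tissue, fewer hepatocytes and less RNA per hepatocyte cannot be told apart. The 15 rows of hepatocyte markers summed to medians of 160000 CPM in ENT-sham and 101100 CPM in MLE-BDL pigs, and 116600 CPM in ENT-BDL pigs, whose range of 85720 to 159900 CPM held that of the MLE-BDL pigs. In MLE-BDL against ENT-BDL 0 of 15 were called and 3 passed the adjusted p as lower, with a median of -0.24, against -2.87 for SULT2A1. Of all genes 3.18% were called there, and 8.27% passed the adjusted p as lower at any fold. In MLE-BDL against MLE-sham 1 of 15 (HP, haptoglobin) was called lower, and 12 of 15 passed the adjusted p as lower, with a median of -0.63, where 3.78% of all genes were called and 6.58% passed the adjusted p as lower at any fold. The 12 cholangiocyte markers, which mark bile duct cells, had 6 called higher after ligation on ENT, 1 on SLE and 7 on MLE, SPP1 and KRT19 among those on ENT and MLE, and 0 in MLE-BDL against ENT-BDL. The shares of all genes called after ligation were 3.39%, 1.49% and 3.78%. Without the matching libraries 6 were again called on ENT, MMP7 (-1.04) was called lower in MLE-BDL against ENT-BDL, and those called higher against ENT-sham went from 2 to 4 in SLE-sham and from 0 to 2 in MLE-sham pigs. Their summed level had medians of 166 CPM (sham) and 409.8 CPM (BDL) on ENT, 356 and 441 CPM on SLE, and 248 and 442 CPM on MLE, and no marker was at 0 in all libraries. The highest sum was 685 CPM in ENT-sham and 669 CPM in ENT-BDL pigs. Each of these groups holds 1 of the 2 nearly alike libraries. ENT-sham replicate 2 was high in MMP7, a gene of this list.

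Among the remaining marker lists, in MLE-BDL against ENT-BDL, where 3.18% of all genes were called, 1 of 12 stellate cell and fibroblast markers (TIMP1) was called higher, 3 of 8 erythroid markers (AHSP, ALAS2 and HEMGN) were called lower, and 0 of 10 Kupffer cell and macrophage markers, 0 of 10 endothelial markers and 0 of 9 tested lymphocyte and granulocyte markers were called. Without the matching libraries 7 of the 8 erythroid markers were called lower. The erythroid list summed to medians of 61.4 CPM in ENT-BDL and 17.9 CPM in MLE-BDL pigs. After ligation on MLE, where 3.78% of all genes were called, 3 of 12 stellate and fibroblast markers (COL3A1, COL1A1 and TIMP1) rose. Of the 10 Kupffer cell and macrophage markers, the receptor MARCO was called higher (1.13 ± 0.28) and 3 passed the adjusted p as lower (6.58% of all genes), and their summed level had medians of 1516 CPM in MLE-sham and 1142 CPM in MLE-BDL pigs. Of 10 endothelial markers 1 was called, CLEC4G of the liver sinusoids, which fell by 1.02 on the log2 scale, and CD79B was the 1 of 9 lymphocyte and granulocyte markers called lower. The part of these cell markers in the SULT2A1 result was not tested.

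Within groups, pigs with more SULT2A1 tended to have more SULT1E1. After subtraction of the group means, Pearson's r over 60 pigs was 0.54 and Spearman's rho 0.53 (permutation tests, two-sided, adjusted p over 10 pairs = 0.00035 and 0.0012). Without the 2 pigs farthest out in SULT2A1 r was 0.52, without the matching ENT libraries 0.53, and with the identifier number taken out as well 0.58. The r within a group ran from -0.05 to 0.71 and was positive in 5 of the 6 groups. SULT1E1 and UGT1A6 gave r of 0.51 and rho of 0.45 (permutation tests, adjusted p = 0.00035 and 0.0029), and 0.34 with the identifier number taken out. SULT2A1 and GSTA4 gave -0.19 for both r and rho, which did not pass (permutation tests, adjusted p = 0.25 and 0.19), and r was -0.1 with the identifier number taken out. UGT1A6 and UGT2B31 gave r of 0.42 (permutation test, adjusted p = 0.0063) and rho of 0.26 (0.097), and r fell to 0.26 without the 2 farthest pigs, to 0.28 without the matching ENT libraries and to 0.22 with the identifier number taken out.

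**Figure D5:**
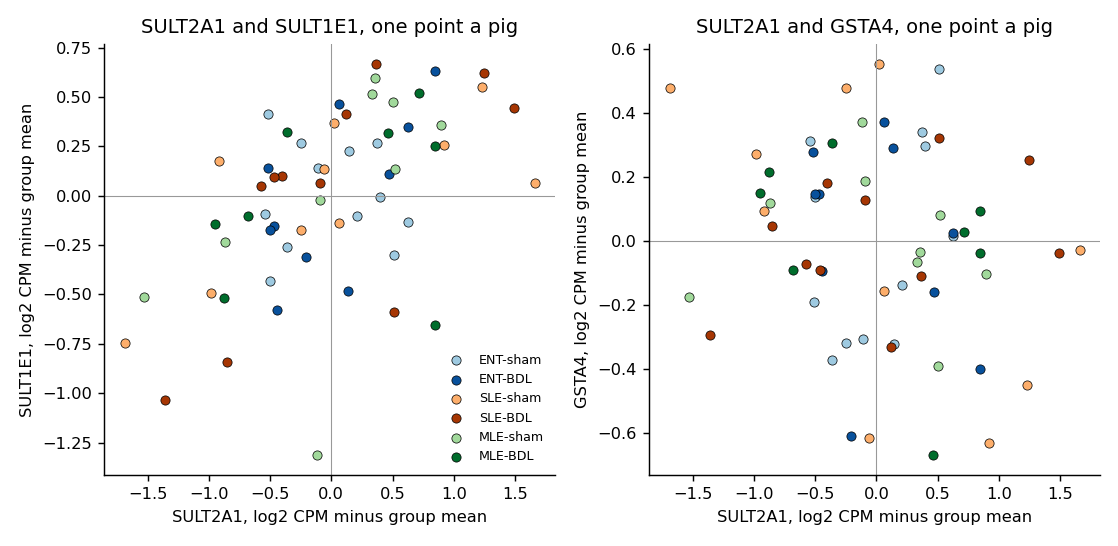
SULT1E1 and GSTA4 against SULT2A1, each as log2 CPM minus the mean of the pig's group, 1 point a pig in 60 pigs, coloured by group. SULT1E1 rises with SULT2A1 (r = 0.54), and GSTA4 does not follow it (r = -0.19).

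Among 10812 named genes whose mean log2 CPM reached 2, the 5 that followed SULT2A1 most closely over 60 pigs after subtraction of group means were GNMT (r = 0.62), HSD11B1 (0.57), FAM20A (0.56), MUT (0.56) and FAM69A (0.55). GNMT, glycine N-methyltransferase, uses up the methyl donor S-adenosylmethionine. HSD11B1 regenerates active glucocorticoid, and MUT is methylmalonyl-CoA mutase. All of these share libraries and scaling with SULT2A1. After ligation on ENT, where SULT2A1 gave -0.02, 4 of these 5 passed the adjusted p as lower (8.53% of all genes did), all under 2-fold: HSD11B1 (-0.94 ± 0.21, adjusted p = 0.00109), FAM20A (-0.84 ± 0.15, adjusted p = 7.28e-05), GNMT (-0.68 ± 0.24, adjusted p = 0.0432) and MUT (-0.36 ± 0.12, adjusted p = 0.0313). HSD11B1 gave -0.26 ± 0.23 in MLE-BDL against ENT-BDL. Over the 6 group means the closest were CXH4orf3 (1.00), IFRD2 (0.998), ICK (0.997), ATR (0.993) and TMEM62 (0.992). Their changes were small, from -0.43 to -0.15 in MLE-BDL against ENT-BDL, and 6 points allow many such matches among 10812 genes.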

How the data were processed

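Liver RNA was sequenced in 60 libraries after poly-A selection with a kit not stated to keep strand. Per the labels and the study's methods, the authors cleaned reads with fastp, aligned them to Sscrofa11.1 with HISAT2 2.0.5, assembled transcripts with StringTie 1.3.3 and deposited raw counts per gene from featureCounts 1.5.0-p3, so that near-identical paralogs and overlapping genes may share or lose reads. The deposited table holds whole-number counts in 60 columns, each matched to a sample by title. The 24 features without a gene name (0.0084% to 0.041% of a library's counts) were left out. Gene positions and descriptions came from the table, and all 50 enzyme family rows had the same start in the RefSeq gene table of Sscrofa11.1.

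Groups were diet by surgery from the labels. In edgeR 4.0.16 (R 4.3.3), genes were filtered with filterByExpr, scaled by TMM and tested by quasi-likelihood in 1 fit of all libraries. Log2 CPM used a prior count of 2. Correlations used 100000 permutations (SciPy 1.17.1). SEs were derived from the F statistic, and 95% intervals are the estimate ± 1.96 SE. The procedure was tested on simulated counts with 200 changed genes. These counts were drawn independently for each library, so the test did not cover links between pigs of the same identifier number. P-values measure the spread between these pigs, and replicate numbers do not pair pigs across groups. The members and the lists were chosen with earlier results of these data known, and the family rows from the annotation after the table was opened. Some listed items are not reported here, and the counts and sums are given without them. Besides the members, the genes named were up to 3 called genes per list with the widest change over 11 comparisons, NR1I2, NR1I3, NR1H4 and HNF4A, and the 5 genes most like SULT2A1. The rows near the 4 absent names, LOC100526118, LOC100623255 and LOC100515741 were added for their descriptions after their values were seen. With 5 members found, 10 pairs replaced the 36 planned. Alternatives were DESeq2 1.42.0, RLE scaling, no filter, a filter of 10 counts in every library, the compared groups only, the replicate number or the identifier number as a block, and each library left out. These are given for the 5 members only. The changes of family and list genes on MLE are thus given without the identifier block. Correlations with the identifier number taken out and within groups, and the enzyme family and list genes without the matching ENT libraries, were added after seeing the data.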

Additional observations from a re-analysis of the deposited data

How the results depend on the processing

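Of 560 log2 fold changes of the 5 genes recomputed under 8 settings, 541 kept their direction and their call, as did 4104 of 4200 with 1 library left out, where a pairwise call takes the adjusted p and the 2-fold limit together. The adjusted p alone crossed 0.05 more often than a call was lost or gained. Of 440 pairwise changes 7 lost and 9 gained it, UGT2B31 in SLE-BDL against ENT-sham among them (0.0533, and 0.0015 with the identifier block), and 12 lost and 30 gained it of 3300 with 1 library left out. With the replicate block, SULT2A1 in SLE-BDL against ENT-BDL was -0.97 (adjusted p = 0.045, under 2-fold), and 0 and 1 members were called in SLE-BDL and MLE-BDL against ENT-BDL. Pigs of different groups with the same replicate number did not deviate together (residual r from -0.231 to 0.381 in 137 pairs, median -0.0173). Those with the same identifier number did more so (median 0.129 in 177 pairs, -0.0186 for other numbers). SULT2A1 in MLE-BDL against SLE-BDL was -1.38 with the identifier block and -1.83 on the compared groups only, with 0 members called in both. The identifier block called 2 members in MLE-BDL against ENT-sham, SULT1E1 at -1.10 being added, and DESeq2 called 1 in the test of MLE against SLE. The cause of these shifts was not tested.

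With each library left out in turn, members called ranged from 0 to 1 in SLE-BDL against ENT-BDL, from 1 to 2 in MLE-BDL against ENT-BDL, from 0 to 1 in SLE-BDL against ENT-sham and from 0 to 1 in the test of MLE against SLE. SULT2A1 ranged from -1.28 to -0.95 in SLE-BDL against ENT-BDL, from -1.29 to -0.98 in SLE-BDL against ENT-sham and from -2.11 to -1.64 in the test of MLE against SLE.

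Uncalled values near 0 turned direction. SULT2A1 in ENT-BDL against ENT-sham was 0.03 with the identifier block and -0.13 to 0.04 with a library left out, and -0.10 to 0.29 in MLE-sham against SLE-sham. UGT1A6 with the identifier block was 0.01 in SLE-BDL against SLE-sham, -0.19 in SLE-sham against ENT-sham and -0.17 in MLE-sham against ENT-sham. With the replicate block it was 0.08 in MLE-BDL against SLE-BDL and 0.07 in MLE-BDL against ENT-sham, where the identifier block gave -0.39 (adjusted p = 0.0489), and without both matching ENT libraries -0.04 in SLE-sham against ENT-sham. With a library left out, UGT1A6 ranged from -0.12 to 0.00 in MLE-BDL against ENT-sham, from -0.11 to 0.02 in MLE-BDL against SLE-BDL, from -0.08 to 0.07 in SLE-BDL against ENT-sham, from -0.10 to 0.04 in SLE-BDL against SLE-sham and from -0.04 to 0.07 in SLE-sham against ENT-sham. UGT2B31 ranged from -0.15 to 0.02 in MLE-BDL against MLE-sham. GSTA4 in MLE-BDL against ENT-BDL was -0.01 with no filter, with 10 counts in every library and without both matching ENT libraries, -0.02 with the replicate block and 0.00 on the compared groups only, and -0.05 to 0.09 with a library left out. In the test of MLE against SLE it was -0.09 with the identifier block and -0.04 to 0.11 with a library left out.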
